A study of Homo sapiens with 6 samples.

Results

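The long noncoding RNA genes MALAT1, NEAT1, NORAD, KCNQ1OT1 and OIP5-AS1, were examined as a set of RNAs usually described as abundant in the nucleus or the cytoplasm. The members were the rows of the count table whose identifiers carry these 5 symbols, 5 of 63677 rows, and they were read in all 6 libraries. 4 of the 5 were among the 15099 genes that passed the filter on low counts, and KCNQ1OT1 did not pass. Passing this filter does not by itself show that an RNA is abundant, so the name is kept only as the usual description. KCNQ1OT1 had 5 counts in the 6 libraries together and was not abundant in this table.

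The cells were T24, an established human bladder cancer line of grade 3, and every library came from cells that had been transfected. The control group (replicates 1, 3 and 5) received a negative control siRNA and the siRBM3 group (replicates 3, 4 and 5) a mix of anti-RBM3 siRNAs. Both groups had 25 nM siRNA with a lipid reagent in serum-free medium for 4.5 h, followed by a night in full medium before harvest. The comparison asks what a lowered level of RBM3, an RNA-binding protein induced by cold, goes along with in the transcriptome. The model is 1 cell line with a transient knockdown read at 1 time, and the sources do not say whether the 3 libraries of a group came from separate cultures. The p-values therefore measure the spread between these libraries, which may be technical.

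Long noncoding RNAs act as RNA molecules and are not translated into known proteins. MALAT1 is retained in the nucleus at speckles, the stores of splicing factors, and NEAT1 is the scaffold on which paraspeckles assemble. NORAD is a mostly cytoplasmic RNA that binds Pumilio proteins, which otherwise repress mRNAs carrying their recognition element. OIP5-AS1, also called Cyrano, carries a highly complementary site for miR-7 and promotes the decay of that miRNA. KCNQ1OT1 is transcribed from the paternal allele within the KCNQ1 gene and silences neighbouring imprinted genes in cis.

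The sequence elements that set the members apart are shown first, because they are what each RNA is best known for. All windows were read from GRCh37 on the strand of the gene, 5′ to 3′. NORAD is an RNA of 5401 bases from a single exon on chromosome 20 (chr20:34633540-34638940, minus strand, ENSG00000260032). The 8-letter Pumilio element TGTANATA, searched on the transcribed strand, occurred 15 times in it, or 2.78 times per kb. These 3 windows hold adjacent pairs of the element, with the element in capitals.
NORAD, chr20:34637420-34637446: atctgTGTATATAgTGTACATAaagga
NORAD, chr20:34636223-34636249: tatacTGTATATAtTGTATATAtaacg
NORAD, chr20:34635587-34635613: tgctgTGTATATAgTGTATATAagcgg
In each pair 1 base separates the elements. At least 1 element was present in 31.7% of the 14747 tested genes with an annotated transcript (the longest was searched) and in 45.4% of the 1545 transcripts within 10% of the length of NORAD. Only 6 transcripts, NORAD included, held 15 or more, and 3 of the 13456 transcripts of at least 1 kb had a higher density. NEAT1 held 6 elements, KCNQ1OT1 9, OIP5-AS1 1 and MALAT1 0.

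MALAT1 and NEAT1 lie next to each other on chromosome 11, with 52.1 kb between them. NEAT1 (ENSG00000245532) spans chr11:65190245-65213011 and MALAT1 (ENSG00000251562) chr11:65265111-65275544, both on the plus strand. The mature 3′ ends of MALAT1 and of the long NEAT1 isoform are known to be formed by RNase P cleavage. A triple helix between U-rich stretches and an A-rich tract protects these ends in place of a poly(A) tail. The next windows show the second U-rich stretch and the A-rich tract of each RNA, with the searched letters TTTGCTTTT and AAAGCAAAA in capitals. The 2 RNAs share further bases beside them.
MALAT1 U-rich, chr11:65273533-65273561: tttctcaggtTTTGCTTTTtggccttttt
NEAT1 U-rich, chr11:65212952-65212980: gcactcaggtTTTGCTTTTcaccttccca
MALAT1 A-rich, chr11:65273564-65273591: agcttaaaaaaaaaaAAAGCAAAAgatg
NEAT1 A-rich, chr11:65212988-65213011: aagagtgagcaggaaAAAGCAAAA
Starts of the U-rich and the A-rich letters were 36 bases apart in MALAT1 and 41 in NEAT1. The pair in this order within 100 bases was found in 12 of the 14747 transcripts (0.0814%). In NEAT1 the A-rich letters were the last bases of the annotated 22743-base transcript, and in MALAT1 they ended at base 8477, with 1957 further bases in the annotated model. The libraries were made from poly(A)-selected RNA, and by which A stretch each of these RNAs was captured cannot be told from counts per gene.

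OIP5-AS1 (ENSG00000247556, chr15:41576156-41614590, plus strand) is the member with the miR-7 site. The mature miR-7-5p sequence from RefSeq is shown with its seed, bases 2 to 8, in capitals, above the site with the matching bases in capitals.
hsa-miR-7-5p: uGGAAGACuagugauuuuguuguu
OIP5-AS1, chr15:41592770-41592798: agAACAACAAAATCACcaatGTCTTCCat
The site matched the 7 bases of the seed and 14 bases of the 3′ part of the miRNA, with 4 unmatched bases between. Seed matches (GTCTTCC on the transcribed strand) occurred 3 times in the 8881-base transcript and in 27.1% of the searched transcripts. KCNQ1OT1, a far longer RNA of 91667 bases, held 6, with at most 4 matching bases upstream. A seed match with 12 or more matching bases upstream occurred in 1 transcript, that of OIP5-AS1. The miRNA itself was not measured in these poly(A) libraries.

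**Figure D1:**
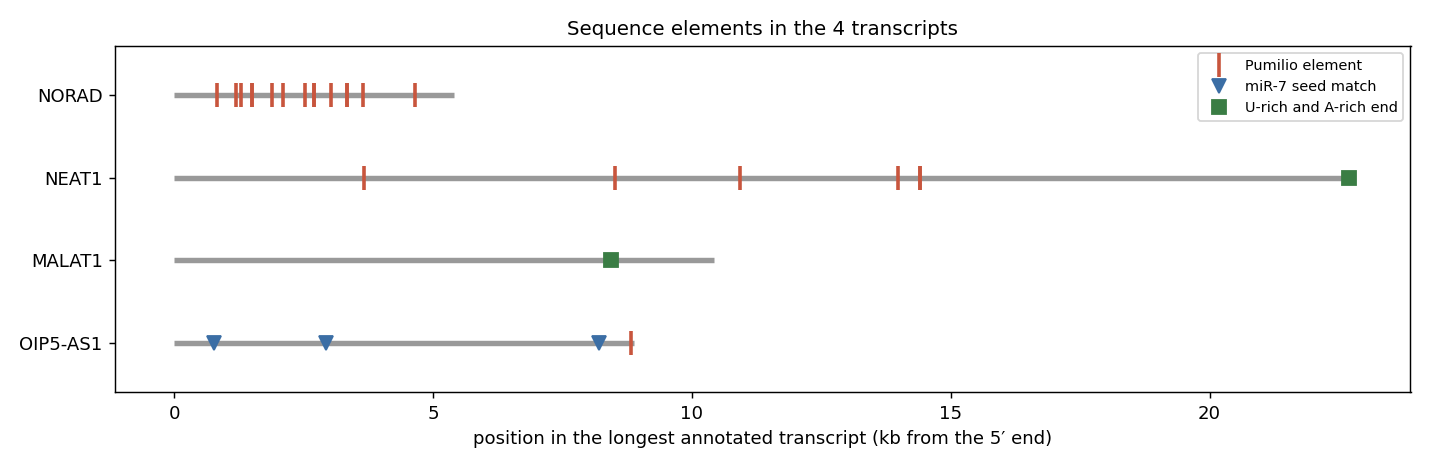
Position of the Pumilio element, the miR-7 seed match and the U-rich and A-rich pair along the longest annotated transcript (horizontal axis, kb from the 5′ end) of the 4 members that passed the filter. NORAD carries 15 Pumilio elements in 5.40 kb, the U-rich and A-rich pair occurs in NEAT1 and MALAT1, and OIP5-AS1 carries 3 miR-7 seed matches.

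Totals per library ranged from 23603992 to 45098612 counts. siRBM3 replicate 3 stood apart from the other libraries, with the highest total and with 9.40% of its counts on the 37 genes of the mitochondrial genome. The other 5 libraries held 1.63% to 4.15% (1.63%, 2.86% and 2.10% in control replicates 1, 3 and 5, 4.15% in siRBM3 replicate 4 and 2.32% in siRBM3 replicate 5). RBM3 was at 225, 368 and 301 CPM (counts per 1000000 counts of a library, with the total scaled by TMM factors) in the control libraries and at 54.1, 90.1 and 58.4 CPM in the siRBM3 libraries, so the labels and the target gene went together in every library. Among epithelial markers the keratin gene KRT7 was at 3167 CPM in control, while EPCAM was at 5.47 CPM and CDH1, which encodes E-cadherin, at 0.33 CPM, and the 7 matched markers of blood, endothelial and stromal cells, 1 of them at 0 counts throughout, summed to 8.24 to 10.1 CPM per library.

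The 4 expressed members were all higher on average in the siRBM3 libraries, by 1.22-fold for OIP5-AS1, 1.44-fold for NORAD, 1.46-fold for NEAT1 and 1.60-fold for MALAT1. NORAD alone showed no overlap between the groups. None of the 4 reached the thresholds of the comparison, which were a fold change of 1.5 with an adjusted p under 0.01 in edgeR's quasi-likelihood test. In that test 0 of 15099 genes (0%) reached them, while DESeq2 placed 159 of 13068 genes (1.22%) past the same limits and none of the 4 members. At an unadjusted p under 0.05 in edgeR's test all 4 were higher, beside a background of 6.56% of genes higher and 6.58% lower (990 and 993 genes, or 611 and 1130 when scaled by library size only). A log2 fold change above 0 was found for 48.5% of all tested genes and 53.6% of the 1989 tested lncRNA genes, with medians of -0.01 and 0.03. In bulk RNA a change in the number of expressing cells and a change in RNA per cell cannot be told apart.

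NORAD stood at 303, 278 and 273 CPM in the control libraries, given in the order of replicates 1, 3 and 5 here and for the other members. The siRBM3 libraries, in the order 3, 4 and 5, had 416, 413 and 400 CPM. The lowest siRBM3 library lay well above the highest control library, and the 3 siRBM3 values lay close together. The means were 285 ± 15.8 and 410 ± 8.17 CPM (SD, n = 3 each). The log2 fold change was 0.53 with an SE of 0.09, and the adjusted p of edgeR's test was 0.0851, which placed NORAD 43rd of 15099 genes by p. DESeq2 gave an adjusted p of 0.000209, and 0.773% of the genes in its table were higher at an adjusted p under 0.01 with no fold limit. In both tools the fold stayed under 1.5. Groups that did not overlap in this direction were found for 9.98% of genes, and an exact two-sided permutation test of the means gave p = 0.1, the smallest that 3 against 3 libraries allow. Without siRBM3 replicate 3 the log2 fold change was 0.52.

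NEAT1 was at 288, 191 and 225 CPM in the controls. After RBM3 silencing it was at 391, 248 and 390 CPM. siRBM3 replicates 3 and 5 stood above all control libraries, and replicate 4 fell below control replicate 1, so the groups overlapped. The means were 235 ± 48.8 and 343 ± 82.3 CPM (SD, n = 3 each), with a log2 fold change of 0.55 and an SE of 0.21. The adjusted p was 0.322 in edgeR's test and 0.188 in DESeq2, and the exact two-sided permutation test gave p = 0.2. Leaving out siRBM3 replicate 3 gave a log2 fold change of 0.44. Short and long isoforms of NEAT1, of which only the long one builds paraspeckles, start at the same promoter and could not be separated in counts per gene.

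MALAT1 had 186, 161 and 159 CPM in the controls and 386, 168 and 253 CPM in the silenced cells. The siRBM3 values were widely spread, from inside the control range in replicate 4 to more than double the control mean in replicate 3. The means were 168 ± 15.2 and 269 ± 110 CPM (SD, n = 3 each). The log2 fold change was 0.68 with an SE of 0.27, an adjusted p of 0.338 in edgeR's test and 0.158 in DESeq2, and p = 0.2 in the exact two-sided permutation test. One library carried much of this difference, since the log2 fold change was 0.32 without siRBM3 replicate 3 and 0.92 without siRBM3 replicate 4. With the mitochondrial share as a covariate it was 0.30, with an SE of 0.24. The same covariate fit gave 0.51 for NEAT1, 0.51 for NORAD and 0.42 for OIP5-AS1. A 610-base antisense gene of chromosome 11 (ENSG00000270117) lies within MALAT1, and whether reads were counted by strand was not given in the sources used here.

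OIP5-AS1 was the least abundant of the 4, with 54.2, 46.7 and 58.1 CPM in the controls against 56.8, 71.9 and 66.1 CPM in the silenced cells. siRBM3 replicate 3 lay between the control values and the other siRBM3 libraries lay above them. The means were 53.0 ± 5.83 and 64.9 ± 7.66 CPM (SD, n = 3 each), and the log2 fold change was 0.29 with an SE of 0.13. The adjusted p was 0.379 in edgeR's test and 0.399 in DESeq2, and the exact two-sided permutation test gave p = 0.2. Its exons share 759 bases with OIP5 on the opposite strand and 195 bases with NUSAP1 on the same strand, so its counts can depend on how reads in these stretches were assigned. OIP5 itself was lower, at 11.2 ± 1.48 CPM in control and 5.16 ± 2.25 CPM in siRBM3 (log2 fold change -1.13, unadjusted p 0.00765 in edgeR's test).

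KCNQ1OT1 (ENSG00000269821, chr11:2618538-2721233, minus strand) had 0 counts in the 3 control libraries and 2, 3 and 0 counts in siRBM3 replicates 3, 4 and 5. A count of 0 allows up to 0.103, 0.115 and 0.113 CPM in control replicates 1, 3 and 5 and up to 0.121 CPM in siRBM3 replicate 5, for counting error alone. Both groups were at or under 3 counts per library, so no fold is given. The host gene KCNQ1 was also near 0, at 0.307 and 0.234 CPM. A 0 in this table is not shown to be an absent RNA, since RBM14 and TAF15, paraspeckle proteins that are widely expressed, were listed at 0 counts in every library too. Of the 63677 identifiers, 55665 were found in the annotation used here, and whether another identifier took the reads of these genes was not tested.

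**Figure D2:**
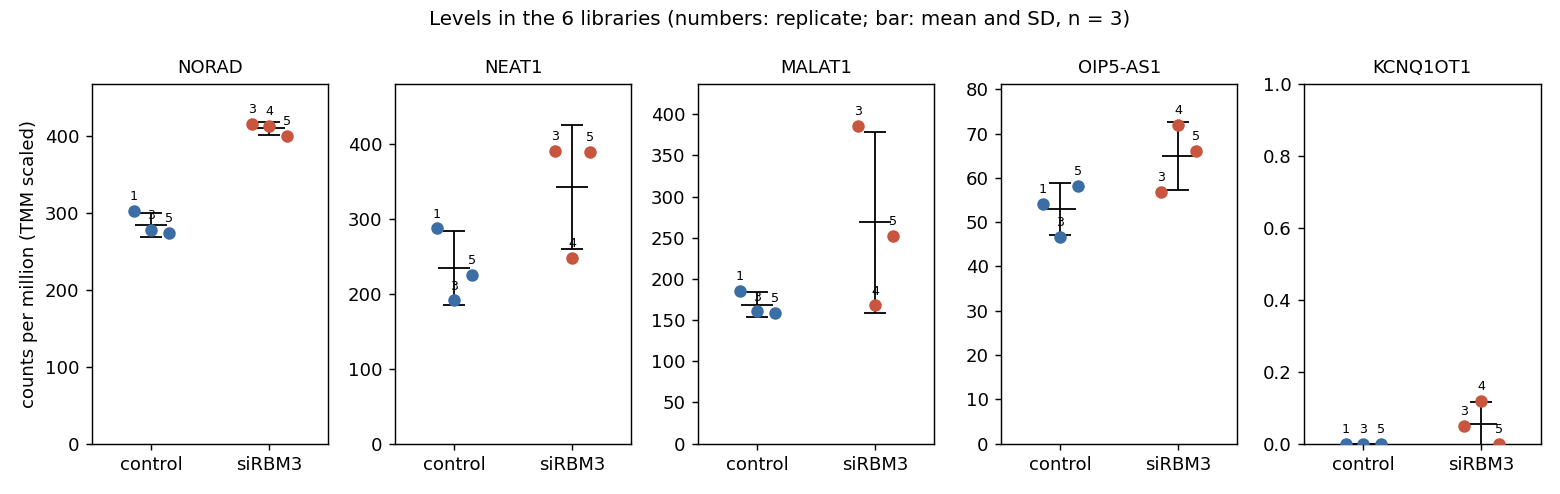
Level of each of the 5 long noncoding RNAs in each library (vertical axis, TMM-scaled CPM, with its own range from 0 in every panel), with the mean and SD of 3 libraries as bars and the replicate number beside each point. NORAD is the panel in which the 3 siRBM3 points (400 to 416) lie above the 3 control points (273 to 303), and KCNQ1OT1 stays at or below 0.119.

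Per length the order of the members differed from the order by CPM. In control, CPM per kb of the longest annotated transcript was 52.7 ± 2.92 for NORAD, 16.1 ± 1.46 for MALAT1, 10.3 ± 2.15 for NEAT1 and 5.97 ± 0.66 for OIP5-AS1 (SD, n = 3). In siRBM3 the same quantity was 75.9 ± 1.51, 25.8 ± 10.5, 15.1 ± 3.62 and 7.31 ± 0.86. NORAD stood above the others in every library, and OIP5-AS1 below them. MALAT1 was above NEAT1 in each of the 6 libraries, but the place of NEAT1 rests on the length assumed: over the 3524 bases of a short annotated transcript its level would be 66.6 ± 13.8 in control and 97.3 ± 23.4 CPM per kb in siRBM3, above NORAD on average. Among the 1989 tested lncRNA genes the control levels per kb ranked 5 for NORAD, 33 for MALAT1, 65 for NEAT1 and 156 for OIP5-AS1, while by CPM the ranks were 3, 5, 4 and 16. Among all 14747 tested genes with an annotated transcript, the ranks per kb were 1131, 3816, 5337 and 7201 in the same order of members.

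Genes annotated as lncRNA took 0.880% to 0.944% of all counts, a narrow range over the 6 libraries. The 5 members held 9.60%, 7.29% and 8.18% of these lncRNA counts in control replicates 1, 3 and 5 and 12.05%, 9.64% and 12.8% in siRBM3 replicates 3, 4 and 5. The lowest siRBM3 share was just above the highest control share. The rest of the lncRNA counts made up 0.827%, 0.850% and 0.808% of all counts in control and 0.830%, 0.837% and 0.793% in siRBM3, with overlapping groups.

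The order of the libraries was then set against depth and mitochondrial share, over all 6 libraries and 10 relations. From high to low, MALAT1 ran siRBM3 3, siRBM3 5, control 1, siRBM3 4, control 3, control 5, and NEAT1 had the same order except that control 5 and control 3 changed places. NORAD ran siRBM3 3, 4, 5, then control 1, 3, 5, and OIP5-AS1 ran siRBM3 4, siRBM3 5, control 5, siRBM3 3, control 1, control 3. The library with the greatest depth and mitochondrial share, siRBM3 replicate 3, was thus highest for 3 members and between control 5 and control 1 for OIP5-AS1. siRBM3 replicate 5, the shallowest library, had a mitochondrial share of 2.32%, inside the control range, and was the second highest for MALAT1, NEAT1 and OIP5-AS1.

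With the mitochondrial share, Pearson's r was 0.85 for MALAT1 (rho 0.37), 0.61 for NORAD (rho 0.71), 0.50 for NEAT1 (rho 0.26) and 0.04 for OIP5-AS1 (rho 0.20). With depth it was 0.86 for MALAT1 (rho 0.26), 0.49 for NEAT1 (rho 0.20), 0.37 for NORAD (rho 0.14) and -0.22 for OIP5-AS1 (rho -0.71). The exact permutation p of r for MALAT1 was 0.1 with mitochondrial share and 0.14 with depth, and over the 10 relations the lowest adjusted exact permutation p was 0.468 for r and 0.454 for rho. For the 2 relations of KCNQ1OT1, which rest on 5 counts, the adjusted exact permutation p was 0.583 and 0.933. Without the 2 libraries farthest from the median mitochondrial share (siRBM3 3 and 4), r was -0.09 for MALAT1, -0.03 for NORAD, -0.32 for NEAT1 and -0.33 for OIP5-AS1. The libraries left spanned only 1.63% to 2.86%, so these values cannot decide whether a relation exists. Without siRBM3 replicate 3 alone, r with the mitochondrial share was -0.26 for MALAT1 and -0.28 for NEAT1, but 0.57 for NORAD and 0.52 for OIP5-AS1. Without those farthest in depth (siRBM3 3 and 5), r was 0.63 for MALAT1, 0.43 for NEAT1, -0.65 for NORAD and -0.67 for OIP5-AS1. Without siRBM3 replicate 3 alone it was -0.77 for MALAT1, -0.69 for NEAT1, -0.74 for NORAD and -0.62 for OIP5-AS1. The sign with depth for MALAT1 and NEAT1 thus changed with the libraries left out. Of the siRBM3 group, the first leave-out of 2 libraries kept only replicate 5 and the second only replicate 4. With 3 libraries a group, no value within a group is given, and the group difference and these relations share the same libraries.

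**Figure D3:**
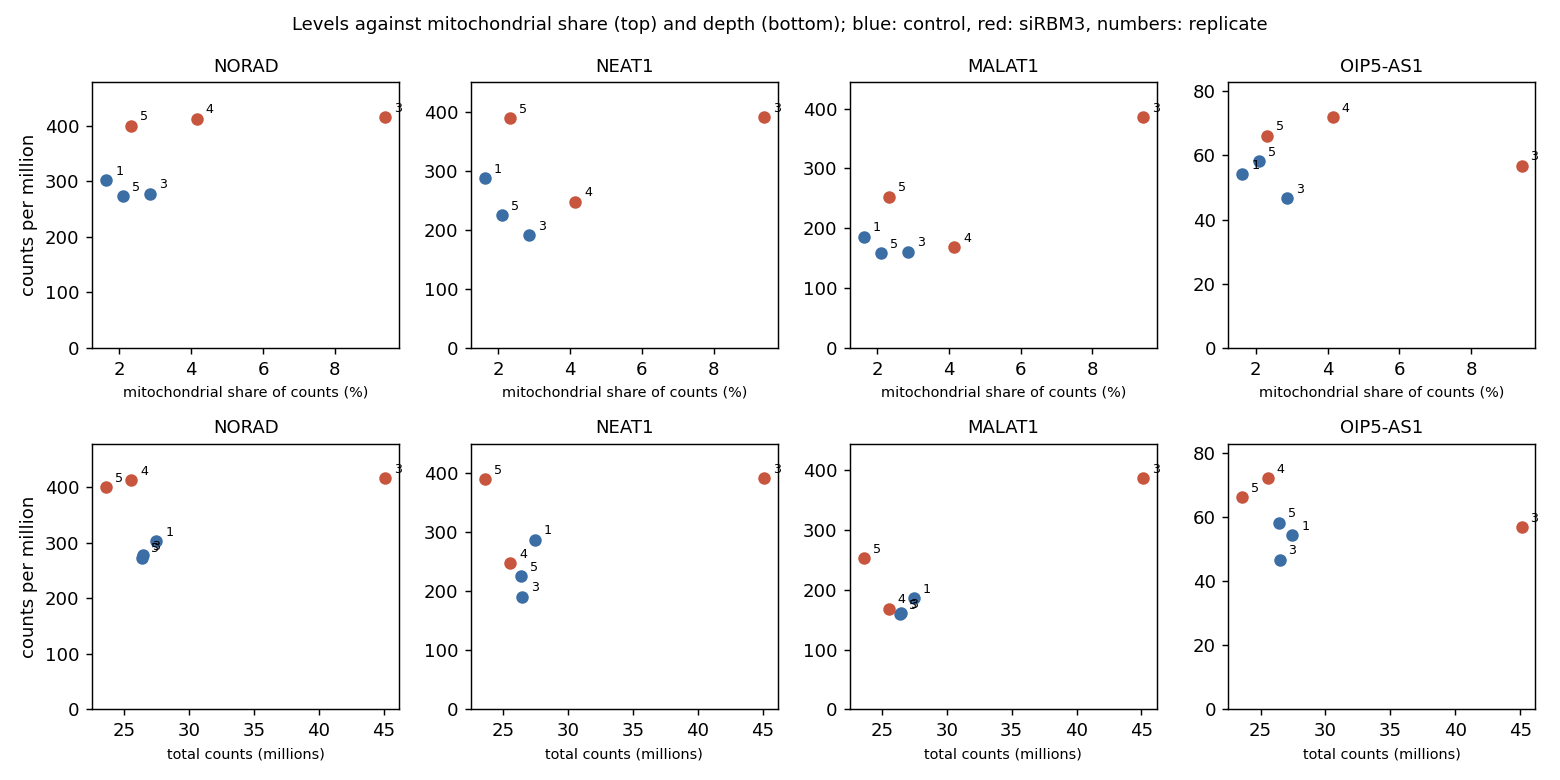
Level of the 4 expressed members (vertical axis, CPM from 0) against the mitochondrial share of counts in percent (top row) and the total counts of the library (bottom row), 1 point per library, blue for control and red for siRBM3. siRBM3 replicate 3, at 9.40% and 45098612 counts, lies far to the right in every panel, and NORAD is as high in the other siRBM3 libraries (400 and 413) as in it (416).

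MALAT1 and NEAT1 went together across the libraries. Pearson's r between their levels was 0.85 (exact permutation p = 0.00278, adjusted 0.0167 over 6 pairs of members) and rho was 0.94 (exact permutation p = 0.0167, adjusted 0.1). Without siRBM3 replicates 3 and 5, the libraries farthest from the median of MALAT1, r was 0.90. Within the siRBM3 group both ran from replicate 3 over 5 to 4, and within control replicate 1 was the highest for both. For the other 5 pairs the adjusted exact permutation p of r lay between 0.231 and 0.953. In all 6 pairs both RNAs were higher on average in siRBM3, and the permutation does not hold the groups fixed, so a shared group difference alone can lower these p-values.

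The genes next to the members were read in the same fit. FAUP4, the only tested gene annotated between NEAT1 and MALAT1, had a log2 fold change of -0.11. FRMD8, 9.25 kb below NEAT1, was lower in siRBM3, with 98.9 ± 10.1 against 133 ± 7.03 CPM (log2 fold change -0.43, unadjusted p 0.00311 in edgeR's test) and no overlap, beside 9.93% of genes without overlap in that direction. Around NORAD, EPB41L1, which encodes a membrane skeleton protein, had 19.5, 11.5 and 14.5 CPM in control and 23.3, 25.4 and 23.9 CPM in siRBM3 (log2 fold change 0.67, unadjusted p 0.00695 in edgeR's test), and SCAND1 on the other side had -0.12. Around OIP5-AS1, CHP1 had a log2 fold change of 0.23 and NDUFAF1 one of -0.33. TSSC4 and CDKN1C, the nearest tested genes around KCNQ1OT1, had -0.25 and 0.32.

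Lists of partner genes were read in the same fit, at an unadjusted p under 0.05, which 6.56% of all genes passed as higher and 6.58% as lower. None of their genes reached both thresholds, in edgeR or in DESeq2. Of 15 paraspeckle proteins 13 were tested, and 1 was higher and 0 lower at that p, with a median log2 fold change of 0.04. That gene was SMARCA4, a chromatin remodelling ATPase, at 195 ± 1.49 and 230 ± 11.3 CPM, and without siRBM3 replicate 3 the count was 0. HNRNPK and NONO, the most abundant per length, had log2 fold changes of 0.03 and 0.10. Of 9 genes, those of nuclear speckle proteins together with METTL16, 1 was higher and 0 lower, with a median of 0.08. It was SON, a scaffold of speckles, at 178, 160 and 162 CPM in control and 215, 198 and 247 CPM in siRBM3 (log2 fold change 0.40, unadjusted p 0.00563 in edgeR's test). SRSF3 and SRSF2, the splicing factors most abundant per length in the list, had 0.00 and 0.08.

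Among 8 proteins known to bind NORAD, 1 was higher and 2 were lower at an unadjusted p under 0.05, with a median of -0.06, and the counts were as many without siRBM3 replicate 3. RBMX, an RNA-binding protein of splicing, had 162 ± 7.73 CPM in control and 189 ± 14.97 CPM in siRBM3 (log2 fold change 0.22). ALYREF, an mRNA export factor, had 108 ± 11.3 and 85.9 ± 5.29 CPM (-0.33), and PRPF19, a spliceosome component, 208 ± 10.8 and 165 ± 14.4 CPM (-0.33). KHDRBS1, the most abundant per length, had a log2 fold change of 0.05.

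In the KCNQ1 imprinted domain 9 of 13 genes were tested, and 0 were higher and 0 lower at that p, with a median of -0.07. PHLDA2 and NAP1L4, the most abundant per length, had -0.10 and -0.06, and without siRBM3 replicate 3 1 gene of 10 was lower. Of the 6 genes of the OIP5-AS1 locus and its partners, CHP1 was higher and OIP5 lower, with a median of 0.03, and without siRBM3 replicate 3 0 were higher and 1 lower. NUSAP1, a spindle protein that overlaps OIP5-AS1, had 113, 100.5 and 161 CPM in control and 51.4, 116 and 133 CPM in siRBM3, with overlapping groups.

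Other well-known long noncoding RNAs were read for comparison. Of 32 listed, 28 were tested, with 3 higher and 0 lower at that p, a median of 0.06, and 1 higher without siRBM3 replicate 3. TUG1, a widely expressed lncRNA, was at 161, 160 and 144 CPM in control and 218, 176 and 214 CPM in siRBM3 (log2 fold change 0.39), with no overlap. FTX, an lncRNA of the X-inactivation centre, had 8.43 ± 1.51 and 12.8 ± 3.71 CPM (0.60), and FGD5-AS1 104 ± 5.46 and 120 ± 4.73 CPM (0.21). ZFAS1 and GAS5, snoRNA host genes and the most abundant per length, had SDs of 141 and 80.5 CPM within control and log2 fold changes of 0.03 and 0.22.

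RNAs without a poly(A) tail were read as well. 3 of 7 listed were matched, and their summed level was 2.17, 3.86 and 2.60 CPM in the controls against 6.17, 5.65 and 1.65 CPM in the silenced cells. RN7SL2 and RN7SK had log2 fold changes of 0.74 and 0.74, with 0 of the 2 tested past an unadjusted p of 0.05. Their median was 0.74, and 0.12 without siRBM3 replicate 3. The sum was highest in siRBM3 replicate 3, where MALAT1 was also highest, and lowest in siRBM3 replicate 5, where MALAT1 was second. Its part in the result was not tested. Of 5 tested epithelial markers, KRT7 and KRT8 were lower in siRBM3 at an unadjusted p under 0.05 (log2 fold changes -0.38 and -0.37). At that limit 0 were higher, and without siRBM3 replicate 3 1 was lower. EPCAM did not reach it, but was higher without overlap, at 5.47 CPM in control and 6.47 CPM in siRBM3 (log2 fold change 0.24). Groups without overlap in that direction were found for 9.98% of all genes. Of the markers of other cell types, COL1A1 and VWF were tested and neither was past that p (0.14 and -0.20).

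The genes whose log2 CPM went most like each member over the 6 libraries are given as a description, since all genes with the group difference resemble one another here. For NORAD they were MET (r 0.999), the receptor of hepatocyte growth factor, MSRB3 (0.997), a methionine sulfoxide reductase, and PPP2R5E (0.994), a regulatory subunit of protein phosphatase 2A. MET was at 192, 171 and 161 CPM in control and 314, 308 and 303 CPM in siRBM3, with the libraries in the same order as for NORAD. For NEAT1 they were ABCC5 (0.993), TRIM24 (0.991) and ZBTB7B (0.989), for MALAT1 PRRT3 (0.991), CHPF2 (0.976) and TRPS1 (0.967), and for OIP5-AS1 BBS9 (0.989), ABR (0.980) and EIF4E3 (0.977). Genes with r above 0.9 numbered 360 for NORAD (3.39% of the genes compared), 112 for OIP5-AS1 (1.05%), 76 for NEAT1 (0.715%) and 59 for MALAT1 (0.555%). How many would reach that r by chance with 6 libraries was not tested.

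**Figure D4:**
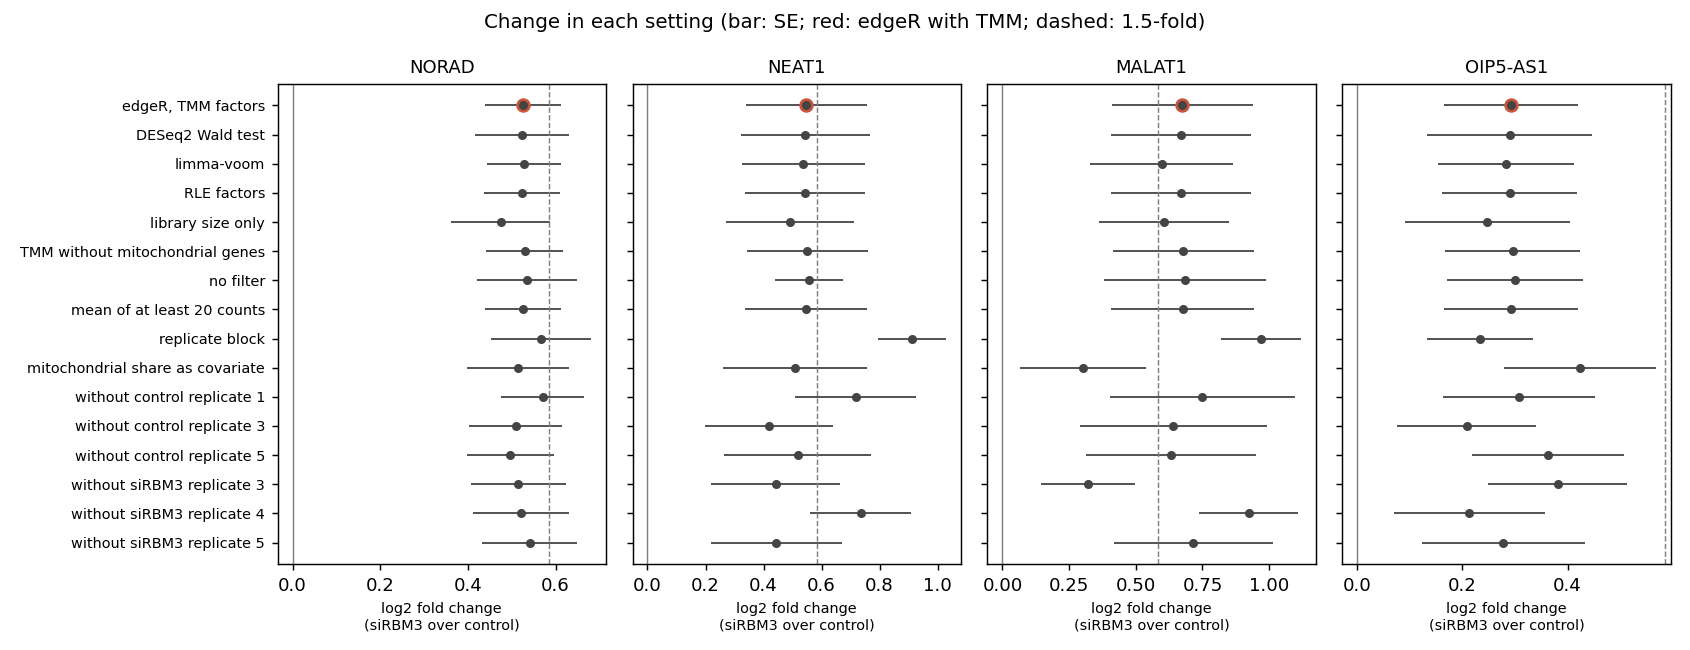
Log2 fold change of the 4 expressed members, siRBM3 over control (horizontal axis), under edgeR with TMM factors (red) and 15 alternatives, with the SE as bars and the 1.5-fold line dashed. NORAD stays between 0.47 and 0.57, and MALAT1 ranges from 0.30 to 0.97.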

How the data were processed

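RNA from T24 cells (6 libraries, 3 control and 3 siRBM3) had been poly(A)-selected, prepared as stranded libraries and sequenced as single-end reads. The authors trimmed reads, used STAR for alignment to GRCh37 (hg19), flagged duplicates in Picard and deposited counts per Ensembl gene from featureCounts (Subread). Not given in the sources used here were the counting annotation, the strand setting and the use of flagged duplicates. Counts were tested on all genes with edgeR 4.0.16 (robust quasi-likelihood test, TMM factors, filterByExpr with 10 counts per library and 15 in all, Benjamini-Hochberg adjustment), with DESeq2 1.42.0 and limma 3.58.1 as alternatives. The fits were also run on simulated counts with the same dispersion for every gene and no outlying library. That run does not show how the fits behave on libraries like siRBM3 replicate 3. Names, lengths and coordinates came from GENCODE 44 mapped to GRCh37 (55665 of 63677 identifiers), and the miRNA from RefSeq. The members and lists were chosen with earlier results of these data known. Genes were named by rule: the members, RBM3, per list the genes with unadjusted p under 0.05 (at most 4) and the 2 most abundant per kb, the nearest tested gene on each side of a member, and the 3 genes most correlated with it among those with a mean of at least 5 CPM. Not every gene the rule names is reported here. Replicate numbers 3 and 5 occur in both groups, but no label says that they mark a shared batch, so samples were not treated as paired. Depths were 23603992 to 45098612 counts. Intervals and floors cover counting error only.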

Additional observations from a re-analysis of the deposited data

How the results depend on the processing

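All 4 expressed members kept a log2 fold change above 0 under all 15 alternatives: 0.30 to 0.97 for MALAT1, 0.42 to 0.91 for NEAT1, 0.47 to 0.57 for NORAD and 0.21 to 0.42 for OIP5-AS1. With no filter, the adjusted p in edgeR was 0.000375 for NEAT1, 0.000482 for NORAD, 0.334 for OIP5-AS1 and 0.599 for MALAT1. NEAT1 and NORAD then missed only the fold limit, at log2 fold changes of 0.56 and 0.53. None passed the thresholds except under the replicate block, where MALAT1 (0.97, adjusted p 0.00976 in edgeR) and NEAT1 (0.91, adjusted p 0.00218 in edgeR) did. In that block control replicate 1 and siRBM3 replicate 4 have no partner, so the group difference rests on the libraries numbered 3 and 5. For both RNAs the libraries without a partner are the highest control and the lowest siRBM3 library. The block leaves very little freedom to estimate the spread of a single gene. Its p-values therefore rest largely on the spread shared over all genes. Only numbers 3 and 5 occur in both groups. Deviations of the libraries numbered 3 correlated at 0.53, the highest of all pairs of a control and an siRBM3 library. For number 5 the value was 0.09, below that of control replicate 1 with siRBM3 replicates 4 (0.20) and 5 (0.20). Whether the numbers mark a shared culture or day is not stated, so the pairing was not settled. The block gave 145 genes called higher and 191 lower, and at an unadjusted p under 0.05 it gave 1714 higher and 2031 lower.

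Genes called higher and lower numbered 84 and 75 under DESeq2 and 127 and 152 with no filter, against 0 and 0. With single libraries left out the counts were 0 to 0 higher and 0 to 1 lower, the 1 being without control replicate 1. At an unadjusted p under 0.05, 611 genes were higher and 1130 lower with library size only, against 990 and 993. The cause was not tested.

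Leaving out siRBM3 replicate 3 reversed r with depth for MALAT1 (-0.77), NEAT1 (-0.69) and NORAD (-0.74), and r with mitochondrial share for MALAT1 (-0.26) and NEAT1 (-0.28). For OIP5-AS1, r with mitochondrial share was -0.25 with CPM from library size only and -0.081 without mitochondrial genes in the total. The list counts without siRBM3 replicate 3 were added after seeing the data. With 3 libraries a group, single-member permutation tests cannot go below 0.1.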
